A study of Ovis aries with 6 samples.

Results

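Inflammatory cytokines of sheep skin were measured with 13 array probes for 8 genes: IL1A, IL1B, IL6, IL10, IL15, IL18, TNF and the chemokine CXCL8. A probe was taken where the array's own identifier was a sheep RefSeq mRNA of one of these genes, which gave 13 of 15008 probes and 8 of the 476 genes that could be named. IL1A, IL10, IL15, IL18 and CXCL8 had 2 probes each, and IL1B, IL6 and TNF had 1 each. The samples were pieces of skin, through its whole thickness, from Aohan fine wool sheep aged 12 months that were kept in pens. Body side skin, which bears wool, gave 3 samples, and groin skin, which bears none, gave 3. At each site replicate 1 was the ram and replicates 2 and 3 were ewes. The animals (1 ram and 2 ewes) had the same father, both sites were taken from each animal, and the labels name no treatment other than local anaesthesia for sampling. Each piece holds epidermis, follicles, glands, vessels, fat and immune cells together, so fewer cells of a type and less RNA per cell cannot be told apart in any value below.

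The interleukin-1 cytokines, IL-18 and TNF start inflammation: they act on receptors that switch on NF-kB, and NF-kB in turn drives genes for more cytokines, chemokines and adhesion molecules. IL-6 signals through JAK kinases and STAT factors, as do IL-10, which damps inflammation, and IL-15, which sustains T and NK cells. CXCL8 (interleukin 8) draws neutrophils out of vessels. In skin, keratinocytes hold stores of IL-1 alpha and of the IL-18 precursor, whereas IL-1 beta and TNF come largely from myeloid cells, and TNF also from mast cells and keratinocytes. IL1A and IL1B stand next to each other on one chromosome in the sheep gene table.

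The arrays held 15208 non-control spots each, and between 10730 and 14053 probes were well above background. The 3 body side arrays were scanned together and the 3 groin arrays were scanned together at another time, so the scan cannot be told apart from the body site. The body side arrays were dimmer, with a 75th percentile of the processed signal from 1103 to 2048, against 3677 to 4401 on the groin arrays. A level is therefore given as log2 of the processed signal minus the array's own 75th percentile, and a difference as body side minus groin on that log2 scale. Of 13278 tested probes, 69.9% were called at a limma adjusted p under 0.05, with 37% higher and 32.8% lower on the body side. Higher calls were 53.0% of all calls with this scaling, but 68.5% with median centring and 68.6% with normexp background correction. The median difference of all tested probes was 0.10, and it shifted by 0.46 with median centring, by 0.36 with normexp and by -1.57 without scaling. The 3 arrays of each site did not overlap for 75.2% of the 13210 probes with all values. These shares are the background for every count of cytokine probes below.

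CXCL8 and TNF were higher on the body side, as were IL1B and IL10. IL1A and IL18 were lower there, and IL6 did not pass the test. IL15 was called lower from a signal near background, and it turned with another background correction. By probe, 6 of the 13 rose, 6 fell and 1 did not pass, and the groups did not overlap for 12. The share called (12 of 13) stands beside 69.9% of all tested probes. The median difference of the 13 probes was 0.12, against 0.10 for all tested probes.

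**Figure D1:**
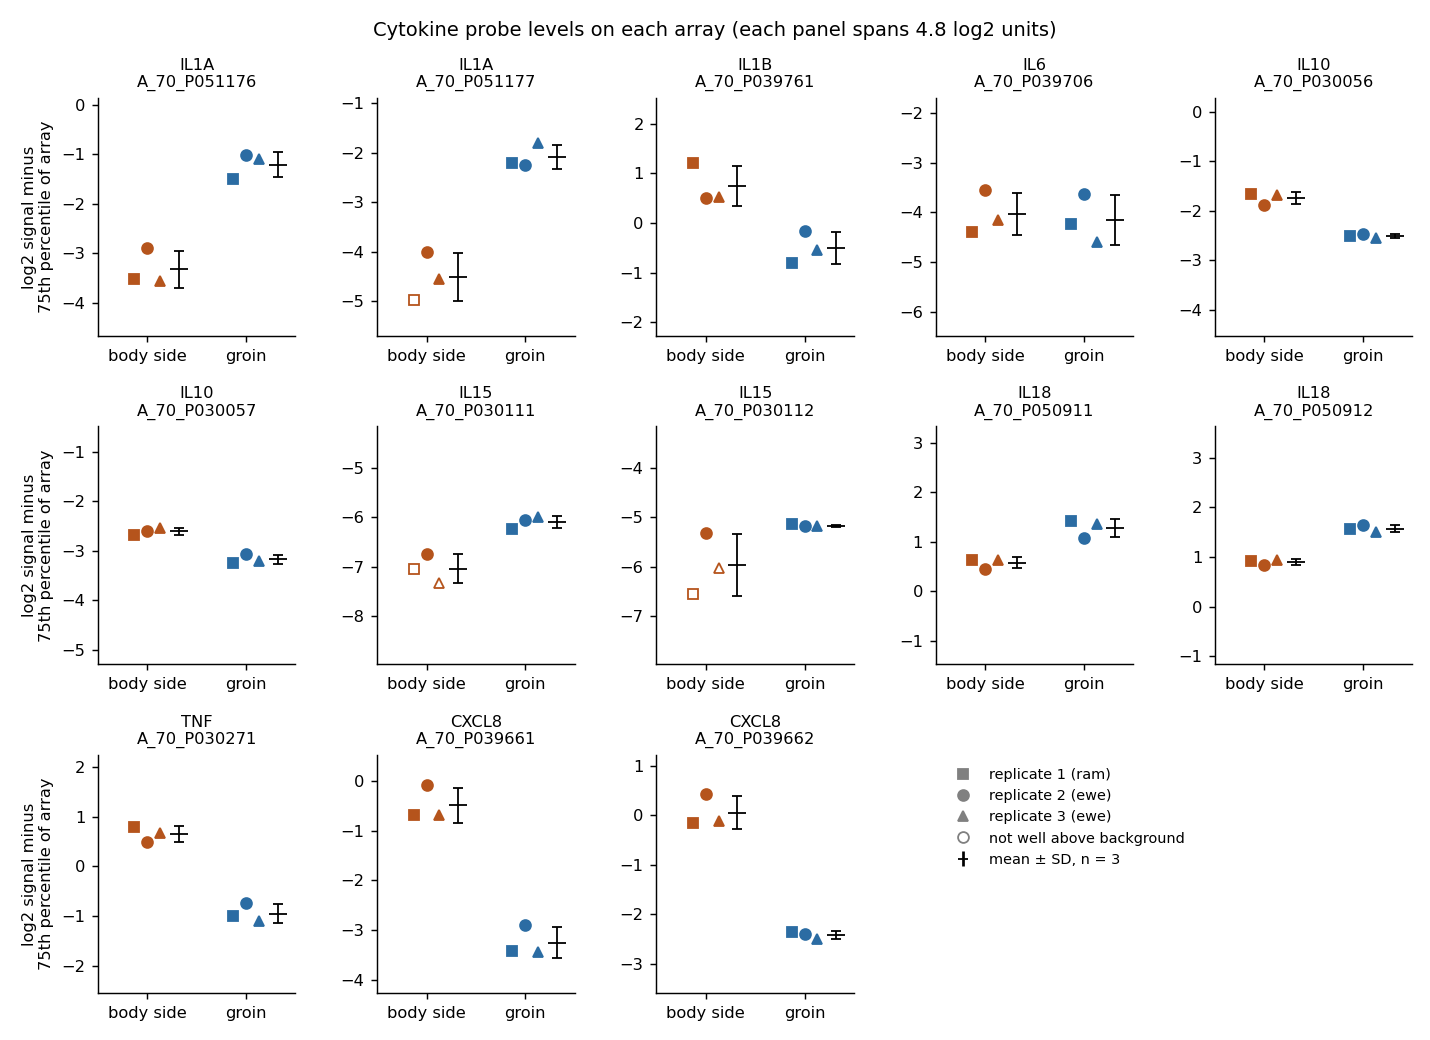
Level of each cytokine probe on each array, as log2 processed signal minus the array's 75th percentile, with the body side left and the groin right; open symbols are arrays where the probe was not well above background, and bars are mean ± SD of 3 arrays. The body side arrays lie above the groin arrays for CXCL8, TNF, IL1B and IL10 and below them for IL1A, IL15 and IL18, and the sites overlap only for IL6.

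CXCL8 showed the largest rise of the 8 genes with the main scaling. The processed signal of its brighter probe, A_70_P039662, was 988, 2767 and 1037 in body side replicates 1, 2 and 3, against 715, 798 and 776 in groin replicates 1, 2 and 3. The dimmer body side arrays thus read this probe above every groin array even before scaling. Scaled levels were -0.16, 0.43 and -0.12 on the body side and -2.36, -2.39 and -2.50 in the groin, a 5.53-fold rise (2.47 ± 0.20 SE, limma adjusted p = 3.89e-05). The other probe, A_70_P039661, read 687, 1938 and 702 on the body side and 341, 563 and 405 in the groin. It rose 6.82-fold (2.77 ± 0.24 SE, limma adjusted p = 4.91e-05), and both probes were highest on the body side in replicate 2. Without scaling between arrays the differences were 0.89, which no longer passed (adjusted p = 0.067), and 1.20, which did.

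TNF, an early cytokine of many inflammatory responses, rose with its single probe A_70_P030271. Processed signals were 1915, 2869 and 1804 on the body side and 1827, 2488 and 2048 in the groin, so the sites overlapped before scaling. Scaled levels were 0.80, 0.49 and 0.67 on the body side, against -1.01, -0.75 and -1.10 in the groin. TNF was 3.04-fold higher (1.60 ± 0.18 SE, limma adjusted p = 0.000136). Its rise rests on the scaling: the unscaled difference was 0.030, with an adjusted p of 0.931, while every scaled alternative kept the call, from 1.48 to 2.06.

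IL1A and IL1B, neighbouring genes whose proteins bind the same receptor, differed in opposite directions. IL1A (interleukin-1 alpha, which is active as a precursor and signals when cells are damaged) read 96.3, 275 and 96.6 on the body side with probe A_70_P051176, against 1297, 2052 and 2051 in the groin. Its levels were -3.52, -2.89 and -3.55 on the body side and -1.50, -1.02 and -1.10 in the groin. Every body side array lay well under every groin array. It fell by 2.11 ± 0.23 SE (4.32-fold, limma adjusted p = 0.000138). The second probe, A_70_P051177, fell by 2.42 ± 0.27 SE (5.36-fold, adjusted p = 0.000133), at levels of -4.98, -4.00 and -4.54 on the body side and -2.20, -2.25 and -1.80 in the groin. On 2 of the 3 body side arrays it was well above background, and its difference was -1.38 with normexp. Of the 2 probes neither lost its call in any alternative that could be fitted.

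IL1B (interleukin-1 beta, whose precursor is typically cut by caspase-1) was measured with 5 spots of probe A_70_P039761. The geometric mean of the processed signal of the 5 spots was 2553, 2917 and 1619 on the body side and 2104, 3722 and 3026 in the groin. Scaled levels were 1.21, 0.51 and 0.52 on the body side, with the ram's array highest, and -0.81, -0.16 and -0.54 in the groin. IL1B was 2.38-fold higher (1.25 ± 0.25 SE, limma adjusted p = 0.00252). The standard deviation among its 5 spots ran from 0.015 to 0.19 on the log2 scale, under the SD among the 3 body side arrays (0.40) and the 3 groin arrays (0.32). Without scaling the difference was -0.325 and did not pass (adjusted p = 0.407).

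IL10, an interleukin that restrains macrophages and T cells, was modestly higher on the body side by both probes. The 5 spots of A_70_P030056 had a geometric mean signal of 348, 559 and 352 on the body side, against 651, 754 and 753 in the groin. Levels were -1.67, -1.87 and -1.68 on the body side and -2.50, -2.47 and -2.55 in the groin. The rise was 1.70-fold (0.76 ± 0.16 SE, limma adjusted p = 0.00255). The second probe, A_70_P030057, read -2.68, -2.61 and -2.54 on the body side and -3.25, -3.07 and -3.20 in the groin, a 1.48-fold rise (0.56 ± 0.16 SE, adjusted p = 0.0111). Its call ended without body side replicate 3 (0.53, adjusted p = 0.0509). Without scaling the differences were -0.81 and -1.01, and both were then called lower.

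IL6, a cytokine of the acute phase and of wound keratinocytes, gave no call. Its single probe, A_70_P039706, read 52.7, 175 and 63.5 on the body side, against 195, 339 and 181 in the groin. Levels were -4.39, -3.55 and -4.15 on the body side and -4.24, -3.62 and -4.60 in the groin, so the sites overlapped and replicate 2 was the highest at both. The difference was 0.12 ± 0.30 SE, with a 95% interval from -0.57 to 0.82 (limma adjusted p = 0.728). With normexp it was 0.74 and passed (adjusted p = 0.0207). It was -0.12 without body side replicate 2 and -0.10 without groin replicate 3.

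IL18, which is stored as a precursor in keratinocytes and drives interferon gamma production, was lower on the body side by both probes. A_70_P050912 read 2072, 3647 and 2178 on the body side and 10810, 12993 and 12515 in the groin. Its levels were 0.91, 0.83 and 0.95 on the body side, against 1.56, 1.64 and 1.51 in the groin. Both groups were tight, with an SD of 0.058 on the body side, against 0.066 in groin skin. IL18 fell by 0.67 ± 0.15 SE (1.59-fold, limma adjusted p = 0.00429). A_70_P050911 fell by 0.71 ± 0.17 SE (1.63-fold, adjusted p = 0.0058), at 0.63, 0.45 and 0.64 on the body side and 1.41, 1.08 and 1.35 in the groin. With median centring neither probe passed, at -0.21 (adjusted p = 0.258) and -0.25 (adjusted p = 0.231). Quantile normalization, cyclic loess and the deposited values moved both the other way, with -1.22 as the lowest of these scaled values for A_70_P050912 and -1.15 for A_70_P050911.

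IL15, which supports T and NK cells and is displayed on the producing cell's own receptor, was near the background of the body side arrays. The 5 spots of A_70_P030111 had a geometric mean signal of 8.36, 19.1 and 7.06 on the body side and 48.6, 62.8 and 68.8 in the groin, with 1 outlier spot left out in groin replicate 2. The median spot brightness was 67.8, 77.0 and 66.4 against local backgrounds of 44.4, 46.1 and 43.8 on the body side, and 120, 133 and 137 against 55.5, 56.5 and 55.1 in the groin. Only body side replicate 2 read either IL15 probe well above background, whereas all 3 groin arrays did. The measured differences were -0.94 ± 0.19 SE for A_70_P030111 (limma adjusted p = 0.00276) and -0.80 ± 0.29 SE for A_70_P030112 (adjusted p = 0.0364). Both turned with normexp, at 0.83 (adjusted p = 0.00424) and 0.79 (adjusted p = 0.00549), and were then called higher. The call on A_70_P030112 also ended under 11 other alternatives, with adjusted p-values up to 0.312. The direction of IL15 therefore depends on how the background is taken off.

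**Figure D2:**
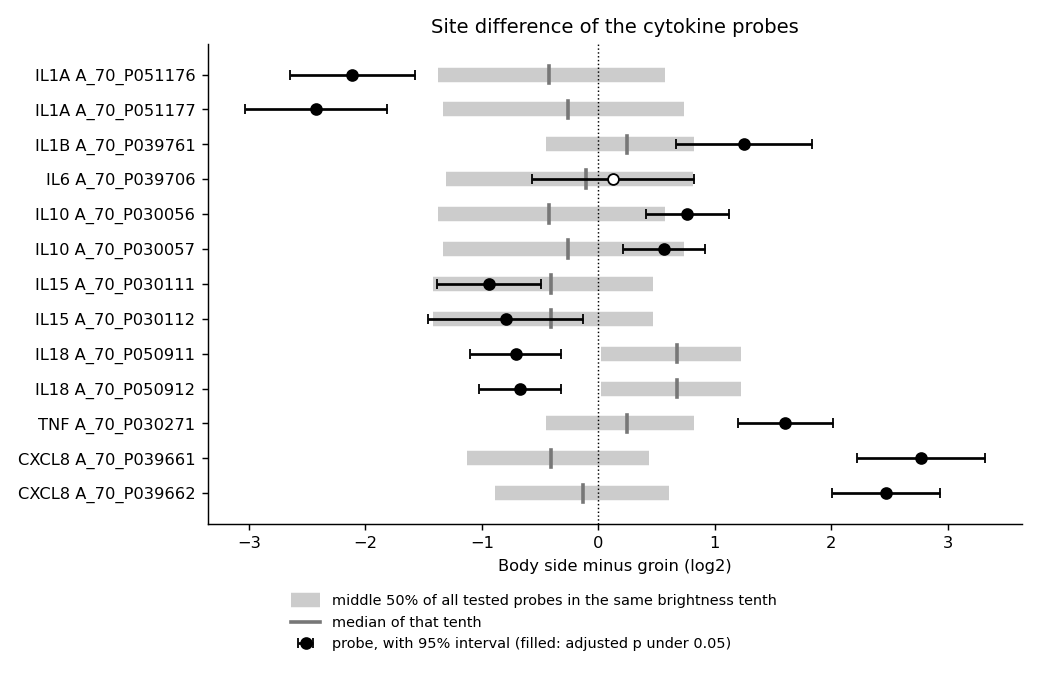
Body side minus groin difference (log2) of each cytokine probe with the 95% interval of the moderated fit; the grey bar spans the middle 50% of all tested probes of like brightness and the tick is their median. CXCL8, TNF, IL1B and IL10 probe A_70_P030056 lie to the right of their grey bars and IL1A and IL18 to the left, while IL15, IL6 and the other IL10 probe lie inside theirs.

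The site difference of all tested probes moved with brightness, so each cytokine was also set beside probes of like signal. With the tested probes divided into 10 equal groups by mean signal, the group medians ran from -0.42 in the fifth to 1.13 in the brightest. Both IL18 probes fell in the ninth group, whose median was 0.67, so A_70_P050912 lay at -1.34 and A_70_P050911 at -1.38 from it, with 9.49% and 9.04% of those probes lower still. CXCL8 lay 2.60 and 3.17 above the medians of its groups, and TNF 1.36 above its own. TNF stood above 94% of the probes in its group and IL1B, in the same group, above 87.5%. The IL10 probes lay 1.18 (A_70_P030056) and 0.82 (A_70_P030057) above their medians, higher than 79.6% and 70.3% of their groups. IL1A lay at -1.69 and -2.16 from its medians, with 11.5% and 8.36% of the probes lower. IL15, in the dimmest group, lay at -0.54 and -0.39 from a median of -0.40, and IL6 lay 0.23 above its own. These positions describe the array data and were not tested.

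**Figure D3:**
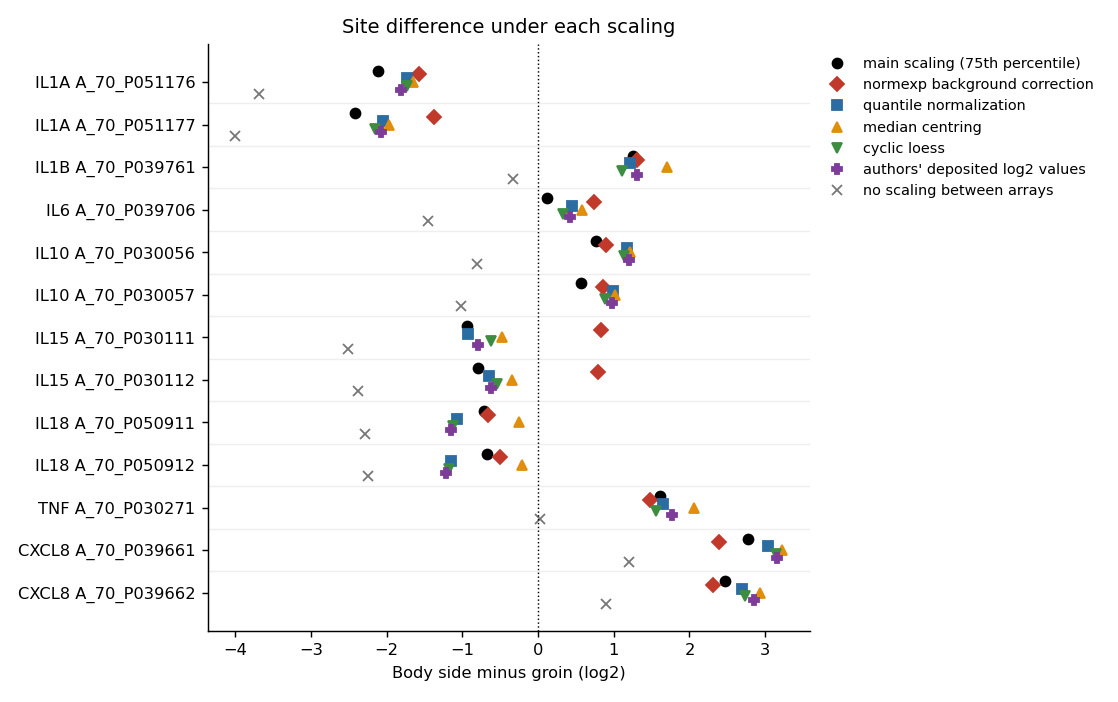
Body side minus groin difference (log2) of each cytokine probe with the main scaling and under 6 other treatments of the signal. CXCL8 stays above 0 and IL1A and IL18 below 0 in all 7, TNF reaches 0.030 without scaling, IL1B, IL6 and IL10 turn only without scaling, and IL15 turns only with normexp.

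Ratios between cytokine probes on the same array do not depend on the scaling by the 75th percentile. They still depend on how the background is taken off. For the brightest probe of each gene, 23 of the 28 ratios had no overlap between the sites. The ratios with IL15 rest on probe A_70_P030112, which was well above background on 1 body side array. Its own site difference turned from -0.80 to 0.79 with normexp. The 28 ratios come from 8 probes and are not independent of each other. Of all single probes with all values, 75.2% had no overlap after scaling. The share among ratios of other probes was not computed, so the count is not read as particular to the cytokines. The smallest two-sided p that the exact permutation test allows with 3 arrays against 3 is 0.1, and the smallest value after Benjamini-Hochberg adjustment over the 28 ratios was 0.122, so none could pass. The log2 ratio of IL1B to IL1A was 4.73, 3.41 and 4.07 on the body side, against 0.70, 0.86 and 0.56 in the groin, a difference of 3.36 (exact permutation p = 0.1). Every body side array had a higher ratio of the interleukin-1 genes than any groin array. The log2 ratio of TNF to IL18 was -0.11, -0.35 and -0.27 on the body side and -2.57, -2.38 and -2.61 in the groin, a difference of 2.28 (exact permutation p = 0.1). That of CXCL8 to IL1A was 3.36, 3.33 and 3.43 on the body side and -0.86, -1.36 and -1.40 in the groin, which made it the widest of the 28 at 4.58. TNF and IL1B could not be told apart in this way: their log2 ratio was -0.42, -0.02 and 0.16 on the body side, against -0.20, -0.58 and -0.56 in the groin, and the sites overlapped (exact permutation p = 0.2). The log2 ratio of CXCL8 to TNF was higher on the body side by 0.86, with no overlap (exact permutation p = 0.1).

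**Figure D4:**
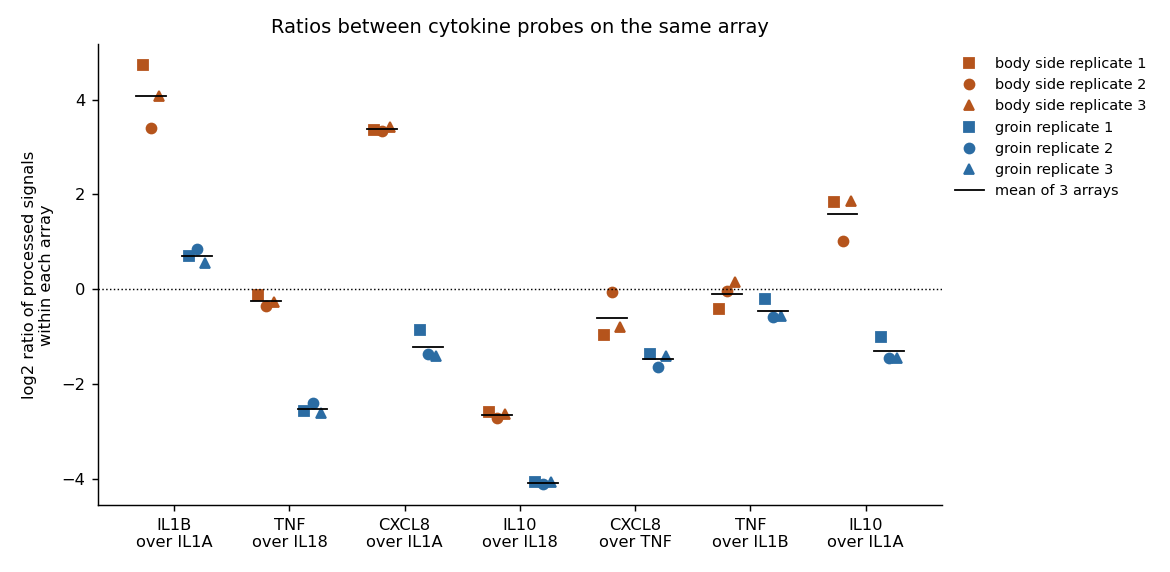
Log2 ratio of the processed signals of pairs of cytokine probes within each array, body side left and groin right of each pair, with the mean of 3 arrays as a line. The height of a ratio depends on the probes and is compared only between sites; the sites are apart for 6 of the 7 pairs shown and overlap for TNF over IL1B.

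Whether the cytokines differed between the sites in the same way in either sex was tested with 1 ram and 2 ewes. None of the 13 probes differed at an adjusted p under 0.05 (limma interaction term), where 0.113% of the 13250 probes fitted did. At an unadjusted p under 0.05 there was 1 of the 13, beside 8.45% of all. It was IL1B, with a site difference of 2.02 in the ram and 0.87 in the ewes, apart by 1.15 ± 0.42 SE (adjusted p = 0.439). For TNF the ram and the ewes were apart by 0.30 ± 0.43 SE (ram minus ewes), and for the brighter CXCL8 probe by -0.40 ± 0.45 SE. With 1 ram, the spread among rams is unknown.

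Other genes of the same pathways were few on the array. Of the receptors of these 8 cytokines only TNFRSF1A, the main TNF receptor, could be named and tested. It was 10.1-fold lower on the body side (-3.34 ± 0.24 SE, limma adjusted p = 2.42e-05), opposite to its ligand, with 1 body side array well above background (-1.63 with normexp). MYD88, the adaptor below the IL-1 and IL-18 receptors, did not pass (-0.74 ± 0.44 SE). It passed without body side replicate 3 (-1.12, adjusted p = 0.0383), was at -0.18 without body side replicate 1, and was at 0.11 with normexp. IRAK4, a kinase bound to that adaptor, did not pass by its brighter probe (-0.013 ± 0.21 SE), but its other probe was lower (-1.44 ± 0.22 SE, limma adjusted p = 0.000638). NFKBIA, the inhibitor that NF-kB induces against itself, did not pass either (-0.34 ± 0.18 SE). It was called lower without body side replicate 2 and with normexp, quantile normalization, cyclic loess and the deposited values, and was at 0.12 with median centring. STAT5A, a transcription factor below cytokine receptors that use JAK kinases, fell by 1.01 ± 0.19 SE (limma adjusted p = 0.00173), and its other probe was at -2.05. The difference of the brighter probe was -0.55 with median centring and -0.61 with normexp, and it passed in both.

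Of 8 other interleukins, interferons and growth factors of blood cells, 7 rose and 1 fell, with a median difference of 1.07. Over the 442 named genes tested, 201 rose and 113 fell, with a median of 0.39. IL5, the eosinophil factor, rose 3.33-fold (1.74 ± 0.19 SE, limma adjusted p = 0.000142) and IL3 2.76-fold. IL2, the T cell growth factor, rose 2.14-fold, and IL7, which stromal cells make for lymphocytes, fell by 1.58 ± 0.22 SE with 2 body side arrays well above background; IL7 did not keep its call with normexp (-0.33). Of 5 other chemokines and receptors, XCL1 (2.84-fold), CXCL10 (2.61-fold) and CCR10 (2.15-fold) rose. CXCL1, which binds a receptor of CXCL8, did not pass at -0.15 ± 0.17 SE. In the TNF superfamily CD40LG rose by 1.52 ± 0.31 SE, but its other probe did not pass (-0.024 ± 0.21 SE), and FAS did not pass by its brighter probe, while its other probe was lower at -0.52 ± 0.18 SE. Of these, only IL5 was above 0 without scaling, at 0.16.

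By their brightest probes, genes that IL-1 or TNF can induce did not follow one direction. Of 11 tested, 3 rose, 6 fell and 2 did not pass, with a median of -0.69. Among the 442 named genes tested, 201 rose and 113 fell, with a median of 0.39. Of the 11 genes, 0 rose and 8 fell without scaling, and 3 rose and 4 fell with normexp (median -0.21). The endothelial adhesion molecules SELE (-1.50 ± 0.18 SE, limma adjusted p = 0.000181) and ICAM1 (-1.90 ± 0.24 SE) fell, with smaller differences after normexp (-0.78 for SELE and -0.92 for ICAM1) that still passed, and so did the transcription factor IRF1 (-1.59 ± 0.22 SE), which lost its call with normexp (-0.21). MMP13, a collagenase, rose by 1.17 ± 0.16 SE. PTGS2, the inducible cyclooxygenase, rose by 1.19 ± 0.19 SE, but its other probe was at -1.38. ZFP36 also rose (1.19 ± 0.18 SE), but its other probe was at -3.32. Of the 3 genes that rose, only MMP13, which had no other tested probe, had none of opposite sign. ICAM1 and IRF1 were each well above background on 2 body side arrays.

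Markers of the immune cells that make or answer these cytokines were also compared. Their counts stand beside 201 higher and 113 lower among the 442 named genes tested. Of 16 neutrophil markers 2 were tested, LTF and ITGAM, and neither passed by its brightest probe. The other ITGAM probe was lower, at -3.02 ± 0.34 SE (limma adjusted p = 0.000144). By the brightest probes their mean level lay between -2.11 and -0.995 on the body side, against -1.70 to -1.61 in the groin. Of 18 monocyte, macrophage and dendritic cell markers 6 were tested, of which 2 rose and 1 fell, with a mean level from -2.08 to -1.54 on the body side and from -1.91 to -1.74 in the groin. Those ranges overlapped for both lists. Of the 2 genes that rose in the monocyte list, CD86 (0.74 ± 0.195 SE) had its other probe at -0.278, and CD80 had no other tested probe. FCGR1A fell (-0.88 ± 0.19 SE) and had no other tested probe. LYZ and CD14 did not pass by their brightest probes, and their other probes were at -0.797 and -0.89. ITGAM is in this list too, with its other probe at -3.02. Of 16 T and NK cell markers 5 were tested, of which 4 rose and 1 fell, with a mean level from -1.53 to -1.49 on the body side and from -2.23 to -1.99 in the groin. The gene that fell was CD247 (-1.18 ± 0.22 SE, other probe at -1.46), whereas CD3E (1.63 ± 0.17 SE) and CD3D (1.36 ± 0.19 SE) were among those that rose. The mean level of the list does not show this split. Of 7 mast cell markers 3 were tested, of which 1 rose and 1 fell, with a mean level from -2.48 to -1.98 on the body side and from -1.83 to -1.56 in the groin. FCER1A, which rose (0.44 ± 0.16 SE), had its other probe at -0.587. TPSB2, which fell (-1.275 ± 0.18 SE), had its other probe at -1.44. Of 7 B cell markers only CR2 was tested, and it fell by 1.68 ± 0.18 SE, with its other probe at -1.71. All 5 tested genes of the wool fibre and its inner sheath rose. No marker of epidermal keratinocytes had a named probe, so the share of epidermis in the pieces was not measured. Without scaling the counts were 0 higher and 2 lower for the neutrophil list, 0 and 5 for the monocyte list, 0 and 3 for the T and NK cell list and 0 and 3 for the mast cell list. The part of cell makeup in the cytokine differences was not tested.

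The named genes whose levels followed each cytokine most closely over the 6 arrays were found by the root mean square difference of centred log2 levels. For CXCL8 it was BAMBI, a pseudoreceptor of the TGF-beta family, at 0.19 (r = 0.993). For TNF it was GHRHR at 0.11 (r = 0.993), for IL1A the prostaglandin transporter SLCO2A1 at 0.072 (r = 0.998) and for IL1B CLN6 at 0.17 (r = 0.989). For IL10 it was the glucose transporter SLC2A3 at 0.087 (r = 0.976), for IL18 the selectin SELP at 0.073 (r = 0.979) and for IL15 DTNBP1 at 0.11 (r = 0.986). IL6 had no close match, with lactoferrin (LTF) nearest at 0.25 (r = 0.767). These correlations are descriptions over 6 arrays that share 2 sites and 2 scans, and the site difference is part of each. Among the cytokines themselves TNF and IL1B lay closest, 0.27 apart, and IL1A and CXCL8 farthest, 2.30 apart.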

How the data were processed

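Total RNA of each of 6 skin samples was amplified, given a Cy3 label and put on its own Agilent sheep array (per the labels' protocols). The submitters' processing notes name Feature Extraction 10.5.1.1 as the reading software. In the scanner output the authors deposited, the processed signal, an intensity, had (per the file headers) background and spatial trends taken off on each array, with no step between arrays. The authors also deposited log2 values; all columns share a median of 8.31 and the correlation with log2 processed signals after quantile normalization was 0.999, and their background step is not given in the sources used here.

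Control spots and outlier spots were left out, and spots of a probe were averaged on the log2 scale. A probe with 5 spots counted as well above background where most of its spots were. Testing was limited to 13278 of 15008 probes, those with all 3 arrays of either site well above background and 2 or more values at each. Tests used limma 3.58.1 in R 4.3.3 (lmFit, eBayes, no block, Benjamini-Hochberg over all tested probes, threshold 0.05); the fit was tested on simulated data. Probes were named by RefSeq accession in the gene table of assembly ARS-UI_Ramb_v3.0, which matched 734 probes and left 14274 unnamed; the files name no build, so no coordinates are given. A listed gene is given by its brightest tested probe.

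Named are the 8 genes and for each cytokine the nearest gene. From each pathway list up to 4 genes with an adjusted p under 0.05 are named, smallest first (or the 1 with the smallest p). IRAK4, CXCL1, FAS, PTGS2, ZFP36, TLR2 and ITGAM were added after their values were seen. The neutrophil, monocyte, T and NK cell, mast cell, B cell and wool lists are given as counts. Some of their genes were picked for naming after the values were seen. The fibroblast, endothelial, adipocyte, skeletal muscle and red blood cell lists are not given. One result of the pathway lists is not reported here. Members and lists were chosen with earlier results of these data known. Alternatives for listed genes and for ratios were chosen after seeing the data. Within a site, replicates are separate animals, and both sites were taken from the same animals; the number of arrays limits the precision. The ram has number 1 throughout, but whether 2 and 3 mark the same ewe is not stated. Deviations of same-numbered arrays from their site means correlated at 0.159, 0.089 and -0.088, so the numbers were not taken as pairs.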

Additional observations from a re-analysis of the deposited data

How the results depend on the processing

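Under 16 alternatives, the 2 IL1A probes and CXCL8 probe A_70_P039661 kept direction and call wherever they could be fitted. The number of cytokine probes called higher (6) was 1 without scaling between arrays, and the number called lower (6) was 3 with median centring and 3 with a filter on all 6 arrays, which left out both IL15 probes and IL1A probe A_70_P051177. With normexp 9 were called higher and 4 lower. Over all tested probes, 190 were called higher and 9412 lower without scaling, where the median difference was -1.47. Without scaling IL1B was at -0.325, IL6 at -1.45, IL10 at -0.81 and -1.01, IL3 at -0.11, IL2 at -0.48, XCL1 at -0.067, CXCL10 at -0.19, CCR10 at -0.47, CD40LG at -0.057 and MMP13 at -0.40. With normexp the IL15 probes turned to 0.83 and 0.79 and MYD88 to 0.11, and with median centring NFKBIA turned to 0.12. Leaving out 1 array at a time, IL6 ran from -0.12 to 0.39, and 5 to 6 probes were called in each direction. The interaction of site and sex called 15 probes of all, 0 with normexp and from 1 (without body side replicate 3) to 95 (without groin replicate 2) with 1 ewe array left out, and no cytokine probe in any of these. With the replicate number as a replicate block the cytokine counts were 6 and 6 and those of all probes 4869 higher and 4342 lower, MYD88 passed, the mast cell list had 0 higher and 2 lower, and the monocyte list had 2 higher and 2 lower; body side arrays 2 and 3 correlated best with groin arrays of another number. Of the ratios within arrays, only the plotted pairs were computed under 4 alternatives, and their direction held. TNF over IL18 ran from 1.99 (normexp) to 2.99 (deposited values), and IL10 over IL18 was at 1.44 and reached 2.42 with the deposited values. The other ratios, with all those of IL15 and IL6 among them, were not computed under these alternatives. The direction need not hold there. By site difference, IL15 probe A_70_P030112 (-0.80) lay below IL18 probe A_70_P050912 (-0.67) with the main scaling. With normexp it lay above, at 0.79 against -0.51. The cause of these changes was not tested. The dim IL15 probes limit what can be said of that gene.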

Other observations

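Toll-like receptors, which sense microbes upstream of these cytokines, differed between the sites in both directions. Of 9 tested genes of that list 2 rose, 2 fell and 5 did not pass, with a median of -0.19 (limma, adjusted over all tested probes). The list also holds CD14, which is not a toll-like receptor and did not pass by its brightest probe. Among the 442 named genes tested, 201 rose and 113 fell, with a median of 0.39. In the list, 0 rose and 7 fell without scaling, and 4 rose and 2 fell with normexp. TLR4, which binds lipopolysaccharide, was at -1.52 ± 0.18 SE (adjusted p = 0.000171), and TLR3, which binds double-stranded RNA, at -1.31 ± 0.21 SE. TLR1, a partner of TLR2, rose by 1.37 ± 0.22 SE. TLR7, which binds single-stranded RNA, rose by 1.31 ± 0.33 SE, but its other probe was at -1.85. TLR2 itself did not pass (0.017 ± 0.17 SE), and its other probe was at -1.74.

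The array that was highest within a site was counted over the cytokine probes. On the body side replicate 2 was the highest of the 3 for 7 of the 13 probes, where it was the highest for 34.3% of all tested probes, and in the groin replicate 2 was the highest for 8 of 13, against 28.4%. The body side probes with replicate 2 on top were those of IL1A, IL6, IL15 and CXCL8. IL1A, IL15 and CXCL8 each count here with both of their probes, and IL10 does so in the groin count. Probes of the same gene are not independent measures. The evenness of the spread was not tested. Body side replicate 2 was also the brightest body side array before scaling. The SD among arrays of the cytokine probes had a median of 0.33 for body side skin and 0.18 for groin skin, and over all tested probes 0.28 for body side skin and 0.18 for groin skin.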
